A study of Homo sapiens with 21 samples.

Results

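A set of 9 genes of the FGF19 and bile acid system, selected by symbol from the deposited expression tables, were followed across herbicide exposures of human liver-derived cells. They are the hormone gene FGF19, its receptor genes KLB and FGFR4, the transporter subunit genes SLC51A and SLC51B, and the bile acid enzyme genes HSD3B7, AMACR, SLC27A5 and BAAT, that is, 9 of the 28808 genes listed. The cells were C3A, a clone of the HepG2 hepatoma line labelled as wild type, and RNA sequencing gave 21 libraries. Unexposed cells gave 6 libraries, with no treatment named, and each of 5 exposures lasting 48 h gave 3. The exposures were the herbicide glyphosate at 5.6 µM, AMPA, which forms when glyphosate is degraded, at 34 µM, the auxin-type herbicide 2,4-D at 2.5 µM, and mixtures of 2,4-D with glyphosate (glyphosate+2,4-D) or with AMPA (AMPA+2,4-D), with each compound at the concentration it had alone. All groups share a single clonal tumour line grown without other liver cells, and no label says whether replicates were separate cultures, so p-values measure the spread between these libraries.

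Bile acids are made from cholesterol in hepatocytes, where they are joined to glycine or taurine and secreted into bile. When they return to the ileum they activate the nuclear receptor FXR, encoded by NR1H4, and ileal cells release the hormone FGF19 into the portal blood. On hepatocytes FGF19 binds the receptor tyrosine kinase FGFR4 together with the co-receptor β-Klotho, the product of KLB, and this signal lowers CYP7A1, the rate-limiting enzyme of the main synthesis route. SLC51A and SLC51B encode the subunits of OSTα-OSTβ, an exporter of bile acids through the basolateral membrane, and both are known FXR targets.

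KLB was lower and SLC51A higher in all 5 exposures than in unexposed cells, on either set of unexposed libraries described next. SLC51B lay below unexposed replicates 1 to 3 in every exposed library and was not called against replicates 4 to 6. BAAT lay between the unexposed sets, above replicates 1 to 3 and below replicates 4 to 6. FGFR4 and HSD3B7, the most abundant of the 9 genes, were not called in any exposure against the 6 unexposed libraries, and FGF19 itself was close to the limit of detection. The plot of FPKM by library shows all 9 genes.

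**Figure D1:**
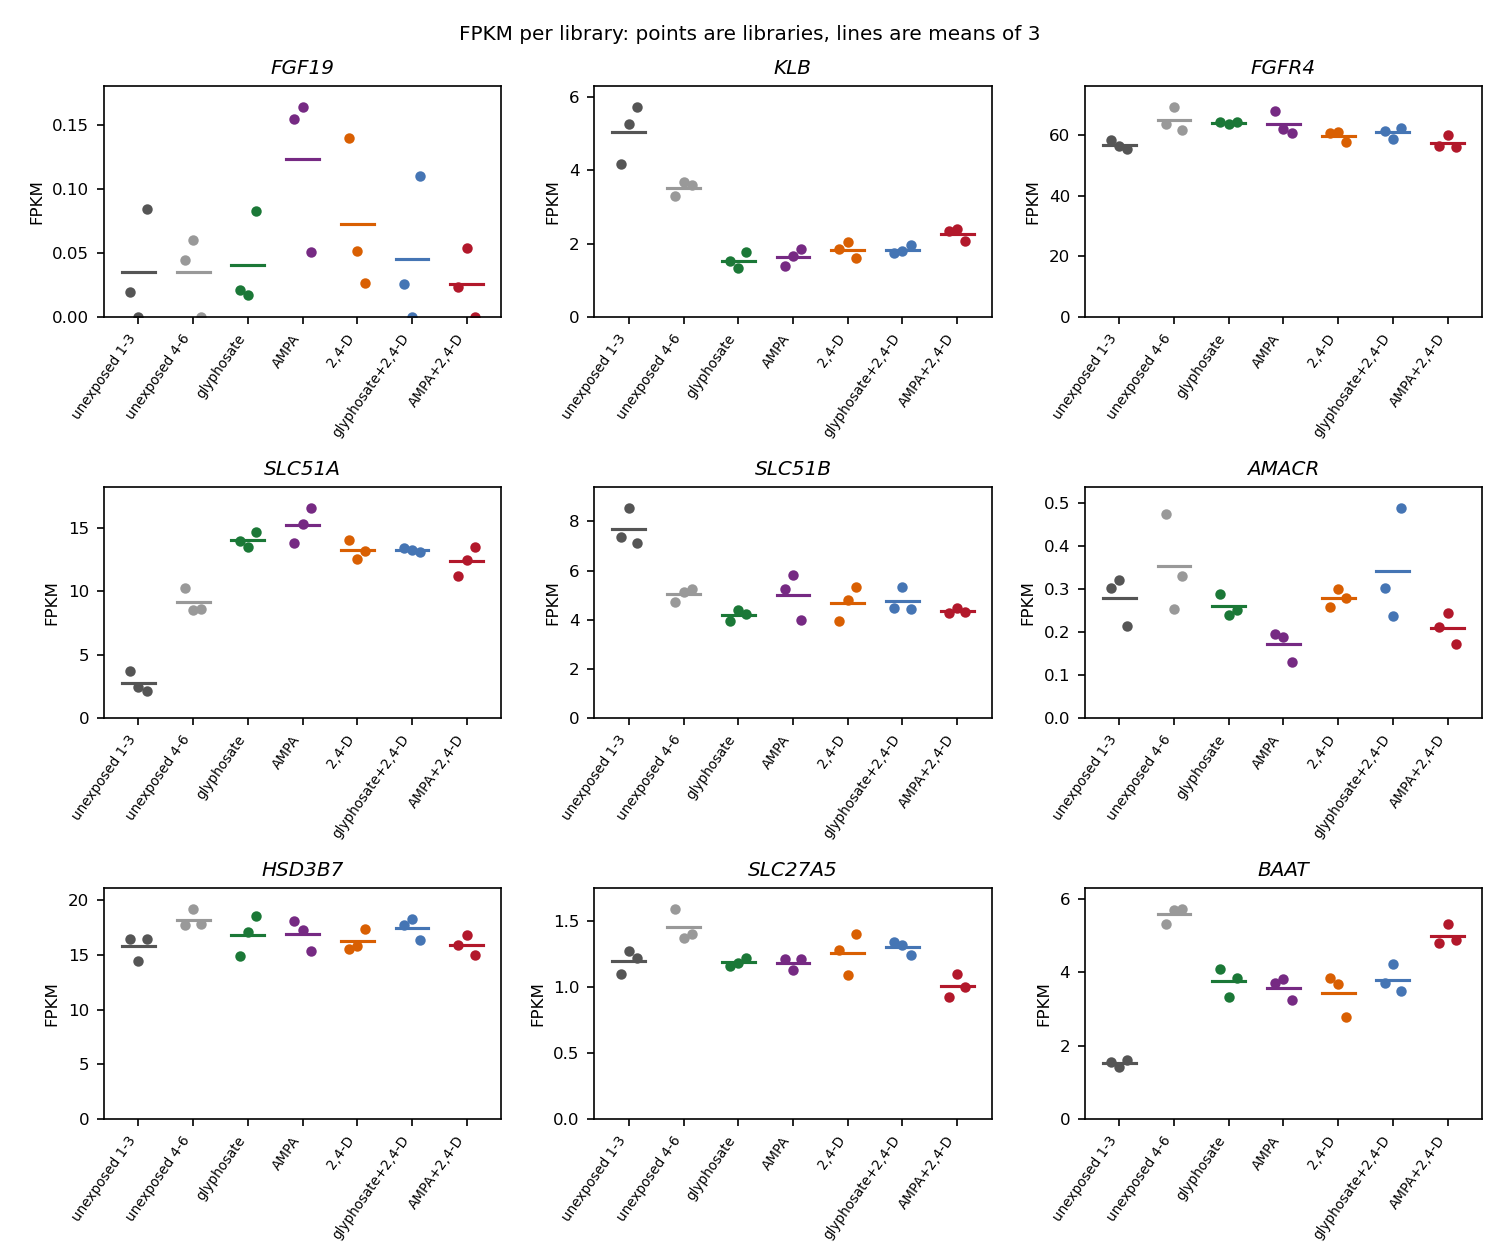
FPKM of each of the 9 genes (vertical axes, linear from 0) in every library, by group along the horizontal axis; points are libraries and lines are means of 3. KLB falls from 3.29 to 5.72 FPKM in unexposed libraries to 1.32 to 2.4 in exposed ones, SLC51A rises from 2.16 to 10.3 to 11.2 to 16.6, and FGFR4 stays between 55.2 and 69.2 throughout.

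The libraries held 15202557 to 24352443 reads, recovered from the deposited values, with 17413732 to 19770399 in unexposed cells. Unexposed replicates 1 to 3 stood apart from replicates 4 to 6. Root-mean-square log2 distances between libraries were 0.244 to 0.253 within the first set, 0.238 to 0.255 within the second and 0.329 to 0.373 between them, against 0.385 to 0.525 between exposed and unexposed libraries. The labels name no batch, so an effect of exposure and a batch shared by all exposed libraries cannot be told apart. All 10 hepatocyte markers were above 1 FPKM, and their summed level was 7617 to 7995 FPKM in unexposed replicates 1 to 3, 11426 to 12854 in replicates 4 to 6 and 12576 to 14446 in exposed libraries. The share of FPKM in ribosomal protein genes was 6.73 to 6.91%, 7.66 to 7.87% and 8.63 to 9.66% in the same order. The hepatocyte marker APOB went against the hepatocyte sum, and fell in 5 of 5 exposures (-0.56 to -0.26). Of 6 cholangiocyte markers 4 were above 1 FPKM, with sums of 687 to 748, 369 to 388 and 515 to 625 FPKM in the same order, led by SPP1, which was 1.27 lower in the second unexposed set (-1.27), while KRT7 was at no more than 0.0356 FPKM. KRT19 was also lower in the second set, at 30.2 to 33.3, 18.7 to 20.8 and 20.6 to 28.9 FPKM in the same order. SOX9 went the other way, at 27.9 to 29.6, 37.4 to 39.5 and 34.3 to 41.1 FPKM. EPCAM was at 86.4 to 87.4, 78.2 to 87 and 87.6 to 97.7 FPKM. Of 7 fibroblast and stellate markers 2 were above 1 FPKM, ACTA2 and PDGFRB, with sums of 16 to 18, 22.4 to 24.4 and 13.5 to 16.4 FPKM. ACTA2 fell in 5 of 5 exposures (-0.49 to -0.36), and PDGFRB was called in 0 of 5. Markers of immune and endothelial cells summed to at most 0.573 FPKM. The part of these shifts in the results below was not tested.

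The promoter windows of the 4 genes whose levels moved most are shown because FXR and related nuclear receptors bind DNA at the hexamer AGGTCA and at paired copies of it. Each window is a RefSeq sequence of GRCh38.p14, running from 250 bases before to 50 bases after an annotated start, and 8 of the 9 symbols matched an entry. The windows are KLB at chr4:39406680-39406979 (plus strand), SLC51A at chr3:196216284-196216583 (plus strand), SLC51B at chr15:65045137-65045436 (plus strand) and BAAT at chr9:101383515-101383814 (minus strand). Capitals mark an exact hexamer on either strand and, in SLC51B, also the second hexamer of the pair described below.
KLB: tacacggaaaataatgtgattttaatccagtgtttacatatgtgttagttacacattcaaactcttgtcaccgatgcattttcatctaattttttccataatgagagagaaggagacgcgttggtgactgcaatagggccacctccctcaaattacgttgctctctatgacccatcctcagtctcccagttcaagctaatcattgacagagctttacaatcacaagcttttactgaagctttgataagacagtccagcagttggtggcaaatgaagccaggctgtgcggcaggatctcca
SLC51A: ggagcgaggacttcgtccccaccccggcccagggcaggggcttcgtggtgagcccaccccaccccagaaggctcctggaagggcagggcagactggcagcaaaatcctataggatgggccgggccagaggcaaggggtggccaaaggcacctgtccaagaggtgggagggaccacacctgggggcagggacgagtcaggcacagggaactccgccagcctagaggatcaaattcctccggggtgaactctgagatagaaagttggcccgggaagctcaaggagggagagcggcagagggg
SLC51B: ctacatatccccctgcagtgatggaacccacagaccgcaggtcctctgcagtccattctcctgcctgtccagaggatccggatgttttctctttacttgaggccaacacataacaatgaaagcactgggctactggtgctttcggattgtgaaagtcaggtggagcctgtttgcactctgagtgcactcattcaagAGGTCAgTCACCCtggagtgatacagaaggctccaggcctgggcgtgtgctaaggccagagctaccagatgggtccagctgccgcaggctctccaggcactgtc
BAAT: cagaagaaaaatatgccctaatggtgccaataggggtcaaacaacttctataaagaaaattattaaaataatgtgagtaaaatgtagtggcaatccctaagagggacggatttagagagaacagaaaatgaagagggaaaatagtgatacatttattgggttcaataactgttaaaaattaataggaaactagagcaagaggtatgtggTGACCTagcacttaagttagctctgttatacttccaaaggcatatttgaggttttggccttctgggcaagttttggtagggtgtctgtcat
The exact hexamer on either strand occurred in 13.8% of the 35116 promoter windows in the table. It began 54 bases before the start in SLC51B, where a second, facing hexamer follows after 1 base. That pair differs from the exact inverted repeat named IR-1 at 2 of its 12 hexamer bases, a match found in 1.12% of windows, while the exact repeat was in 0%. BAAT held 1 exact hexamer, 41 bases before the start on the opposite strand, and HSD3B7 held 2, which began 225 and 207 bases before it. The windows of KLB, SLC51A, FGFR4, AMACR and SLC27A5 held none. The SLC51A start of this window lies 5047 bases inside the gene as the tables list it, so the window describes a start downstream of the listed one.

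FGF19, the hormone gene (ENSG00000162344, chromosome 11, 69698232 to 69704642, minus strand of GRCh38), had 47 reads over all 21 libraries. Unexposed replicates 1 to 6 held 1, 0, 4, 2, 3 and 0 reads. Glyphosate libraries held 1, 1 and 3 reads, AMPA libraries 6, 7 and 2, 2,4-D libraries 6, 2 and 1, glyphosate+2,4-D libraries 1, 0 and 4, and AMPA+2,4-D libraries 1, 2 and 0. Every exposed group overlapped the unexposed libraries, and 4 libraries held no read. A count of 0 allows up to 3 reads, or 0.0507 to 0.0828 FPKM depending on the library, and this limit covers counting error alone. FGF19 was below the level required for testing, which was 1 FPKM in at least 3 libraries. Without that filter its difference between AMPA and unexposed cells was 0.12 on the log2 scale of FPKM + 1 (limma, adjusted p = 0.0439), which rests on 15 reads in the 3 AMPA libraries and 10 in the 6 unexposed ones. Against replicates 1 to 3 or 4 to 6 alone it was not called (adjusted p = 0.0856 and 0.0977).

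KLB encodes the co-receptor that gives FGF19 its high affinity for liver cells (ENSG00000134962, chromosome 4, 39406853 to 39451536, plus strand). In unexposed cells, replicates 1 to 3 had 4.17, 5.25 and 5.72 FPKM, and replicates 4 to 6 had 3.29, 3.68 and 3.59. FPKM, the deposited unit, scales fragments by gene length and by a factor for each library that stands for sequencing depth. Glyphosate libraries had 1.53, 1.32 and 1.76 FPKM and AMPA libraries 1.38, 1.65 and 1.84. The 2,4-D libraries had 1.84, 2.05 and 1.61, the glyphosate+2,4-D libraries 1.75, 1.79 and 1.96, and the AMPA+2,4-D libraries 2.34, 2.4 and 2.06. All 15 exposed libraries were below all 6 unexposed ones, and the AMPA+2,4-D libraries were the highest of the exposed. Fewer cells expressing a gene and less of its RNA per cell cannot be told apart in such bulk libraries.

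The log2 difference of KLB from unexposed cells, on FPKM + 1 as for all differences here, was -1.04 with glyphosate, -1.0 with AMPA, -0.88 with 2,4-D, -0.88 with glyphosate+2,4-D and -0.68 with AMPA+2,4-D. The standard error was 0.12 each time, and adjusted p-values of limma ran from 9.23e-07 to 0.00012. KLB was called, which means an adjusted p under 0.05, in each exposure. Against unexposed replicates 1 to 3 the differences were -1.25 to -0.88 and against replicates 4 to 6 they were -0.84 to -0.47, all called. All 5 comparisons share the same unexposed libraries.

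FGFR4 encodes the receptor kinase that pairs with β-Klotho (ENSG00000160867, chromosome 5, 177086886 to 177098144, plus strand). It was the most abundant of the 9 genes, at 58.3, 56.2 and 55.2 FPKM in unexposed replicates 1 to 3 and 63.7, 69.2 and 61.7 in replicates 4 to 6. Glyphosate libraries had 64.2, 63.6 and 64.2 FPKM, AMPA libraries 67.9, 61.9 and 60.7, and 2,4-D libraries 60.6, 61 and 57.7. The glyphosate+2,4-D libraries had 61.4, 58.8 and 62.2 FPKM and the AMPA+2,4-D libraries 56.4, 60 and 55.9. Every exposed group overlapped the unexposed range. The log2 differences from the 6 unexposed libraries were -0.08 to 0.08 (standard error 0.06, limma adjusted p from 0.257 to 0.944). Their 95% intervals reached from -0.20 to 0.20, so changes of this size remain within the error. Leaving out unexposed replicate 5, the highest library, brought the glyphosate difference to 0.12 (adjusted p = 0.0485). FGFR4 was 0.18 higher with glyphosate and 0.16 higher with AMPA than in unexposed replicates 1 to 3, and 0.17 lower with AMPA+2,4-D than in replicates 4 to 6 (-0.17, adjusted p = 0.00503). These small differences depended on scaling: TPM, which moved the median of all genes by -0.15 to -0.09, gave 0.05 and -0.03 for the former pair, not called. FGFR4 was then called lower with AMPA+2,4-D against all 6 libraries (-0.19, adjusted p = 0.00865) and with AMPA, 2,4-D and glyphosate+2,4-D against replicates 4 to 6 (-0.20 to -0.17).

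The other FGF receptor genes are FGFR1, at 1.11 to 1.65 FPKM in unexposed and 1.65 to 2.16 in exposed libraries, FGFR3, at 33.5 to 41.4 and 37.6 to 42.2, and FGFR2, with 0 to 4 reads per library. FGFR1 rose in 5 of 5 exposures, by 0.16 to 0.30 on the log2 scale, and FGFRL1, a receptor-like gene without a kinase, fell in 5 of 5 (-0.26 to -0.11). FGFR1 was called against unexposed replicates 4 to 6 in 2 of the 5 exposures. FGFR3 was not called, with differences of 0.06 to 0.10, although it was against replicates 1 to 3 alone (0.14 to 0.19, 5 of 5). FGF21, the other hormone that signals through β-Klotho, had 0 to 11 reads per library, and KL, the gene of the related co-receptor α-Klotho, was not analysed here.

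SLC51A encodes OSTα (ENSG00000163959, chromosome 3, 196211487 to 196243178, plus strand). Its level was low in unexposed replicates 1 to 3, which had 3.73, 2.45 and 2.16 FPKM, and replicates 4 to 6 had 10.3, 8.5 and 8.6. Glyphosate libraries had 14, 13.5 and 14.7 FPKM and AMPA libraries 13.8, 15.3 and 16.6. The 2,4-D libraries had 14.1, 12.6 and 13.2, the glyphosate+2,4-D libraries 13.4, 13.3 and 13.1, and the AMPA+2,4-D libraries 11.2, 12.5 and 13.5. All exposed libraries were above all unexposed ones, and the largest step was between the unexposed sets. The log2 differences from unexposed cells were 1.30 with glyphosate, 1.40 with AMPA, 1.22 with 2,4-D, 1.22 with glyphosate+2,4-D and 1.13 with AMPA+2,4-D (standard error 0.31, limma adjusted p from 0.00101 to 0.00587). The AMPA+2,4-D call was lost when that exposure and the unexposed libraries were fitted alone (adjusted p = 0.0565).

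The size of the SLC51A difference depended on the unexposed set. It was 1.85 to 2.12 against replicates 1 to 3 and 0.41 to 0.68 against replicates 4 to 6, called in 5 of 5 exposures each time. Replicates 4 to 6 exceeded replicates 1 to 3 by 1.44 (standard error 0.11, limma adjusted p = 3.86e-08). PCYT1A, a phosphatidylcholine synthesis gene that overlaps SLC51A on the other strand and shares 7.35% of its exon bases, stayed at 7.1 to 8.93 FPKM in all libraries.

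SLC51B encodes OSTβ, the smaller subunit (ENSG00000186198, chromosome 15, 65045370 to 65053396, plus strand), and at 940 bases of listed length it had 59 to 150 reads per library. Unexposed replicates 1 to 3 had 7.38, 8.55 and 7.14 FPKM, and replicates 4 to 6 had 4.72, 5.12 and 5.24. Glyphosate libraries had 3.94, 4.41 and 4.24 FPKM and AMPA libraries 5.24, 5.84 and 3.98. The 2,4-D libraries had 3.94, 4.81 and 5.34, the glyphosate+2,4-D libraries 4.47, 5.33 and 4.45, and the AMPA+2,4-D libraries 4.29, 4.47 and 4.31. Only the glyphosate and AMPA+2,4-D libraries were all below the 6 unexposed ones, while the other exposures overlapped replicates 4 to 6.

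SLC51B fell with glyphosate (-0.48, limma adjusted p = 0.00808), AMPA+2,4-D (-0.43, adjusted p = 0.0156) and 2,4-D (-0.35, adjusted p = 0.0466), with a standard error of 0.14. It was not called with AMPA (-0.28, adjusted p = 0.107) or glyphosate+2,4-D (-0.33, adjusted p = 0.0575). The 2,4-D call was lost without any 1 of unexposed replicates 1, 2 and 3 or of 2,4-D replicates 1 and 2, with adjusted p-values of 0.0829 to 0.225, and the AMPA+2,4-D call when these groups were fitted alone (adjusted p = 0.0526). Calls were gained for AMPA without unexposed replicate 4 (adjusted p = 0.0379) and for glyphosate+2,4-D without unexposed replicate 4, 5 or 6 (adjusted p = 0.0194 to 0.0383). Against replicates 1 to 3 alone SLC51B was called in 5 of 5 exposures (-0.74 to -0.54), and against replicates 4 to 6 in 0 of 5 (-0.21 to -0.01).

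The ratio of SLC51A to SLC51B FPKM was 0.505, 0.287 and 0.303 in unexposed replicates 1 to 3 and 2.18, 1.66 and 1.64 in replicates 4 to 6. In exposed libraries it was 2.48 to 4.18. Mean ratios were 3.36 ± 0.269 with glyphosate, 3.14 ± 0.894 with AMPA, 2.89 ± 0.597 with 2,4-D, 2.81 ± 0.277 with glyphosate+2,4-D and 2.85 ± 0.268 with AMPA+2,4-D (SD, n = 3), against 1.1 ± 0.827 in the 6 unexposed libraries. Each exposed group lay wholly above the unexposed libraries. This gave a two-sided exact permutation p of 0.0238 for each, the smallest that 3 against 6 libraries allow, and 0.0238 after adjustment over the 5 exposures. The permutation treats the 6 unexposed libraries as exchangeable, although their ratios fall into separate sets, and all 5 p-values reuse these libraries. By FPKM, SLC51B was the higher of the pair in unexposed replicates 1 to 3 and SLC51A in all 18 other libraries. This order rests on the listed gene lengths, of which that of SLC51A is the longer. In recovered reads SLC51A was the higher in unexposed replicates 1 to 3 as well. If the cells use a shorter SLC51A transcript, the ratios are understated, and whether they do was not tested. Across the 21 libraries the log2 values of the pair had a Pearson r of -0.86, a description of libraries that share groups and sets.

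**Figure D2:**
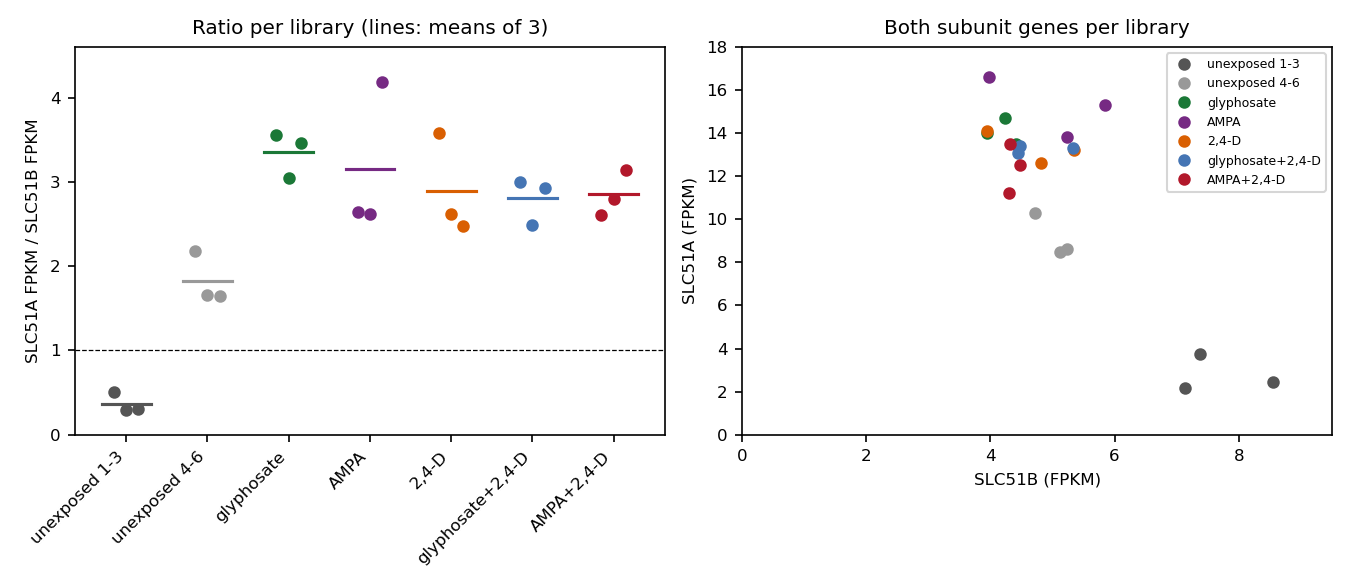
Left, ratio of SLC51A to SLC51B FPKM in each library by group, with lines at the means of 3 and a dashed line at 1; right, FPKM of SLC51A (vertical) against SLC51B (horizontal), coloured by group. Unexposed replicates 1 to 3 lie at ratios of 0.287 to 0.505, replicates 4 to 6 at 1.64 to 2.18 and exposed libraries at 2.48 to 4.18.

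HSD3B7, the enzyme that follows the first hydroxylation of the sterol ring in bile acid synthesis (ENSG00000099377, chromosome 16, 30985207 to 30989152, plus strand), was the second most abundant of the 9 genes. Among unexposed libraries, replicates 1 to 3 had 16.5, 14.4 and 16.5 FPKM and replicates 4 to 6 had 17.7, 19.2 and 17.8. Exposed libraries ran from 14.9 to 18.6 FPKM, with group means of 15.9 to 17.5. The exposed range lay within the unexposed one, and log2 differences were -0.09 to 0.04 (standard error 0.08, limma adjusted p from 0.354 to 0.98). Under TPM scaling, and with voom on the recovered reads, HSD3B7 was called lower with AMPA+2,4-D (-0.21, adjusted p = 0.0442 and 0.0323). Against replicates 4 to 6 TPM called it lower with AMPA (-0.25), 2,4-D (-0.24) and AMPA+2,4-D (-0.29). HSD3B7 shares 64.6% of its exon bases with an opposite-strand transcript, AC135048.4, which was listed at 0.0935 to 0.58 FPKM. With strand not stated, reads of these entries cannot be told apart there, and both levels depend on how shared reads were counted.

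AMACR, a racemase of bile acid intermediates and branched fatty acids (ENSG00000242110, chromosome 5, 33986178 to 34008108, minus strand), was at 0.129 to 0.488 FPKM, or 10 to 42 reads per library, and below the level for testing. AMPA libraries had 0.196, 0.189 and 0.129 FPKM, all under the 0.213 to 0.475 of unexposed libraries. Without the filter the AMPA difference was -0.17 (limma adjusted p = 0.0312), and it was called against replicates 4 to 6 (-0.21, adjusted p = 0.0205) but not against replicates 1 to 3 (-0.13, adjusted p = 0.146). It shares 55% of its exon bases with a readthrough transcript on the same strand, C1QTNF3-AMACR, listed at no more than 0.0768 FPKM. The levels of both entries depend on how shared reads were counted.

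SLC27A5, a bile acid-CoA ligase that readies bile acids for conjugation (ENSG00000083807, chromosome 19, 58479512 to 58512413, minus strand), had 1.1, 1.27 and 1.22 FPKM in unexposed replicates 1 to 3 and 1.59, 1.37 and 1.4 in replicates 4 to 6. The AMPA+2,4-D libraries had 0.926, 1.1 and 1, the lowest of any group, and the other exposed libraries had 1.09 to 1.4. SLC27A5 fell with AMPA+2,4-D (-0.21, standard error 0.07, limma adjusted p = 0.0136) and was not called in the other 4 exposures, with differences of -0.09 to -0.01. The call was lost without AMPA+2,4-D replicate 1 (adjusted p = 0.0691), without unexposed replicates 4 to 6 together (adjusted p = 0.119) and when these groups were fitted alone (adjusted p = 0.0708). Against replicates 4 to 6 limma called SLC27A5 lower with glyphosate (-0.16, adjusted p = 0.047), AMPA (-0.17) and AMPA+2,4-D (-0.29). Against replicates 1 to 3 it was called in 0 of 5 exposures. The glyphosate and AMPA calls were lost when the compared groups were fitted alone (adjusted p = 0.117 and 0.122). Against all 6 unexposed libraries voom called SLC27A5 lower with glyphosate (-0.25) and AMPA (-0.3), and TPM with AMPA (-0.26). ZNF446, which overlaps it on the other strand across 14.1% of its exon bases, was at 1.14 to 1.35 FPKM in unexposed and 0.342 to 0.814 in exposed libraries. With strand not stated, reads of these genes cannot be told apart there.

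BAAT joins bile acids to glycine or taurine (ENSG00000136881, chromosome 9, 101360417 to 101383519, minus strand). Levels in unexposed replicates 1 to 3 were 1.55, 1.42 and 1.6 FPKM, and those in replicates 4 to 6 were 5.31, 5.71 and 5.73. Glyphosate libraries had 4.1, 3.33 and 3.84 FPKM and AMPA libraries 3.71, 3.81 and 3.24. The 2,4-D libraries had 3.85, 3.69 and 2.79, the glyphosate+2,4-D libraries 3.7, 4.23 and 3.48, and the AMPA+2,4-D libraries 4.81, 5.31 and 4.88. Every exposed library lay between the sets of unexposed libraries, and the AMPA+2,4-D libraries came closest to the upper set.

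Against all 6 unexposed libraries BAAT was not called in any exposure (0.12 to 0.56, standard error 0.29, limma adjusted p from 0.124 to 0.771). Against replicates 1 to 3 it was higher in 5 of 5 (0.81 to 1.25, adjusted p of 4.65e-07 or less). Against replicates 4 to 6 it was lower in 4 of 5 (-0.58 to -0.46, adjusted p of 0.000311 or less), AMPA+2,4-D being the exception (-0.13, adjusted p = 0.206). The sets themselves differed by 1.38 (standard error 0.09, adjusted p = 2.23e-09), so the direction for BAAT turned with the unexposed libraries chosen.

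**Figure D3:**
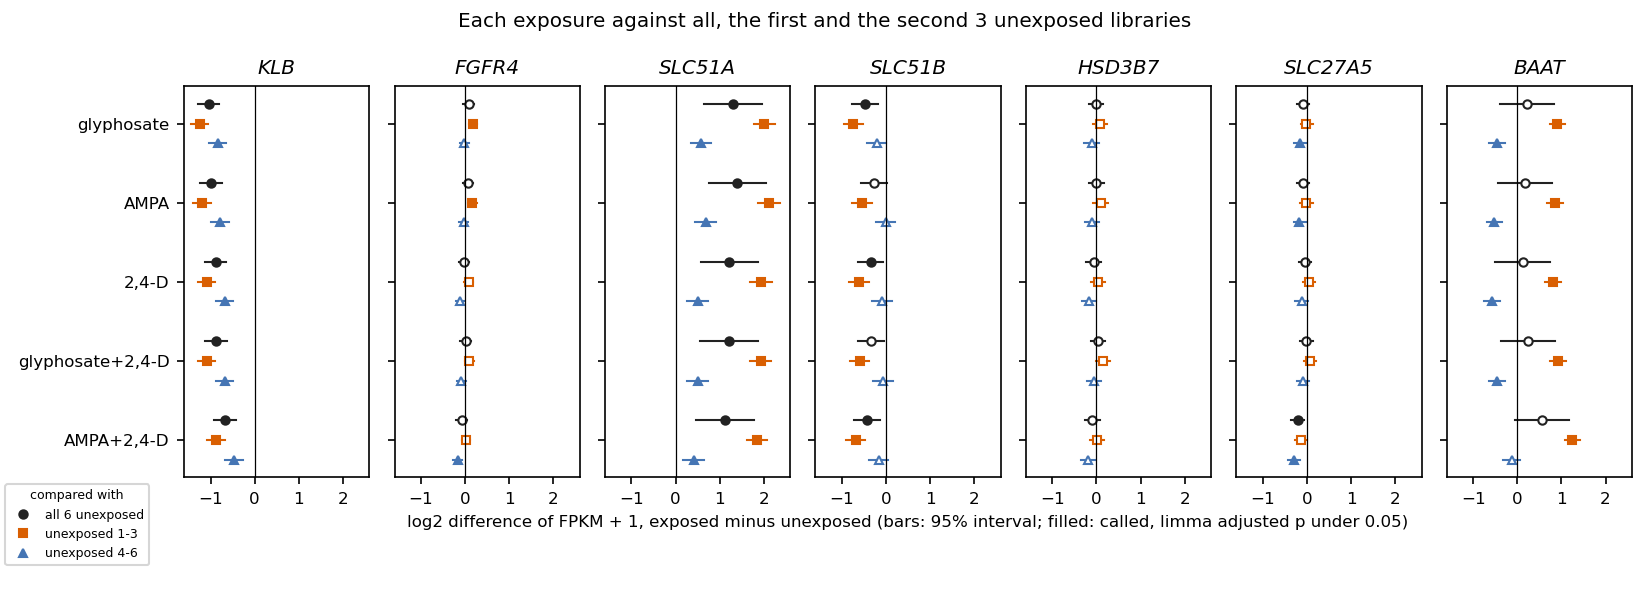
Log2 difference of FPKM + 1 (horizontal axes) for the 7 tested genes in each exposure (rows), against all 6 unexposed libraries (circles), replicates 1 to 3 (squares) and replicates 4 to 6 (triangles), with 95% intervals; filled symbols were called by limma. KLB lies left of 0 and SLC51A right of 0 in all 15 comparisons each, while BAAT lies at 0.81 to 1.25 against the first set and at -0.58 to -0.13 against the second.

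Of the 9 genes 7 were tested, and their counts of calls stand beside the share of all 13405 tested genes that were called. With glyphosate 1 gene rose and 2 fell, where 27.7% of all genes were called higher and 25.1% lower. With AMPA 1 rose and 1 fell, beside 28% and 24.8% of all genes, and with 2,4-D 1 rose and 2 fell, beside 25% and 22.6%. With glyphosate+2,4-D 1 rose and 1 fell, beside 25.4% and 22.7%, and with AMPA+2,4-D 1 rose and 3 fell, beside 26% and 24.4%. The median log2 difference of the 7 genes was -0.09 to 0.01 over the exposures, and that of all genes 0 to 0.01.

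Between the unexposed sets 5 of the 7 genes were called, with 3 higher in replicates 4 to 6 (SLC51A, BAAT and FGFR4) and 2 lower (SLC51B and KLB), beside 15.7% and 15.9% of all genes. FGFR4 differed by 0.19 (limma adjusted p = 0.00382), SLC51B by -0.53 (adjusted p = 0.00083) and KLB by -0.41 (adjusted p = 0.00262). HSD3B7 and SLC27A5 were not called (0.20 and 0.16), although no library of 1 set overlapped the other for any of the 7 genes, as for 45.5% of all genes. Against replicates 1 to 3, 5 members were called with glyphosate and with AMPA and 4 with each other exposure, beside 57.5%, 58%, 54.1% (2,4-D), 54.8% (glyphosate+2,4-D) and 55.3% (AMPA+2,4-D) of all genes. Against replicates 4 to 6, 4 were called with glyphosate, AMPA and AMPA+2,4-D and 3 with 2,4-D and glyphosate+2,4-D, beside 51.1%, 51.3%, 50.3%, 46.4% and 46.7% of all genes. The median over the 7 genes was 0.01 to 0.10 against the first set and -0.17 to -0.09 against the second.

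Glyphosate and AMPA were given at different concentrations, so their values stand side by side above without a test. Each mixture was compared with its components, which had the same concentration alone. None of the 7 genes was called in these 4 comparisons by limma, where 0%, 0%, 2.71% and 0% of all genes were called for glyphosate+2,4-D against glyphosate, glyphosate+2,4-D against 2,4-D, AMPA+2,4-D against AMPA and AMPA+2,4-D against 2,4-D. At an unadjusted p under 0.05 the members numbered 0, 0, 2 and 1 of 7, beside 7.95%, 4.31%, 18.2% and 10.6% of all genes. KLB was 0.32 higher with AMPA+2,4-D than with AMPA (95% interval 0.04 to 0.60, adjusted p = 0.211), and BAAT was 0.39 higher (-0.33 to 1.10, adjusted p = 0.592). When the unexposed sets were fitted as separate groups, an alternative added after the data were seen, both were called (adjusted p = 0.0412 for KLB and 0.0113 for BAAT). The interval for SLC51A between glyphosate+2,4-D and glyphosate was -0.83 to 0.68, so this fit could not detect a difference of that size. Its standard error of 0.36 pooled the spread within all groups, including the step between the unexposed sets. With those sets fitted as separate groups, the standard error of SLC51A against either set was 0.11. The compared libraries were at 13.1 to 13.4 FPKM with the mixture and 13.5 to 14.7 with glyphosate (log2 difference -0.08).

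The interaction asks whether a mixture departs from the sum of its components on the log2 scale, and 33.6% of all genes were called for glyphosate with 2,4-D and 36.7% for AMPA with 2,4-D. KLB was called in both, at 1.04 (standard error 0.18, limma adjusted p = 0.000245) and 1.20 (adjusted p = 5.6e-05). SLC51A was called in both, at -1.30 (standard error 0.47, adjusted p = 0.0424) and -1.50 (adjusted p = 0.0198). The mixture levels of KLB and SLC51A thus lay near those of either component alone, and not at their sum. The interaction includes the unexposed libraries, so a batch shared by all exposed libraries cannot be told apart from it. The SLC51A interaction with glyphosate was not called without unexposed replicate 1 or 2 or without any 1 exposed library of the 3 groups (adjusted p = 0.0531 to 0.0808).

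FPKM is per listed length, which covers all annotated exon bases of a gene. The order of levels within a group therefore rests on these lengths. If the cells use a shorter transcript, FPKM understates that gene, and how far this moves the order was not tested. In unexposed replicates 1 to 3 the order of the tested genes was FGFR4, HSD3B7, SLC51B, KLB, SLC51A, BAAT and SLC27A5, with no overlap between neighbours. In replicates 4 to 6 it was FGFR4, HSD3B7, SLC51A, BAAT, SLC51B, KLB and SLC27A5, again without overlap. By means over the 15 exposed libraries the order was FGFR4, HSD3B7, SLC51A, SLC51B, BAAT, KLB and SLC27A5. With AMPA+2,4-D every BAAT value (4.81 to 5.31 FPKM) was above every SLC51B value (4.29 to 4.47). Single libraries departed too: BAAT (4.1) was above SLC51B (3.94) in glyphosate replicate 1, and SLC51A (16.6) above HSD3B7 (15.4) in AMPA replicate 3. Over the 15 exposed libraries the ranges of HSD3B7 (14.9 to 18.6 FPKM) and SLC51A (11.2 to 16.6) overlapped, as did those of SLC51B (3.94 to 5.84) and BAAT (2.79 to 5.31), and those of KLB (1.32 to 2.4) and SLC27A5 (0.926 to 1.4).

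Genes of the pathway around these 9 were counted from lists chosen with earlier results known. Over the exposures 25 to 28% of all tested genes were called higher and 22.6 to 25.1% lower, and each count below stands beside these shares. Of 12 tested genes of bile acid sensing and transcriptional control 2 rose and 7 to 9 fell, depending on the exposure, with medians of -0.35 to -0.24. NR1H4, which encodes FXR, was at 17.5 to 20.6 FPKM in unexposed and 7.91 to 14.7 in exposed libraries, and fell by 0.59 to 1.02 on the log2 scale in 5 of 5 exposures (-1.02 to -0.59, limma adjusted p of 2.1e-05 or less). NR0B2, the FXR target SHP, was at 109 to 141 FPKM and 88.4 to 112, and fell in 5 of 5 (-0.39 to -0.24), though in 3 of 5 against unexposed replicates 1 to 3. HNF4A, a master regulator of hepatocyte genes, fell by 0.69 to 0.84 (-0.84 to -0.69), PPARA, a fatty acid sensor, changed by -0.79 to -0.63, and FOXA2, a liver pioneer factor, rose by 0.49 to 0.65. These 3 genes were called in the same direction against either unexposed set in 5 of 5 exposures.

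Of 9 tested genes of bile acid synthesis and conjugation outside the 9 members, 2 rose, near the share of all genes called higher, and 4 to 6 fell. AKR1D1, the reductase of the sterol ring, was at 5.77 to 7.84 FPKM in unexposed and 1.51 to 3.21 in exposed libraries (-1.52 to -1.10). SLC27A2, another bile acid-CoA ligase, changed by -1.09 to -0.67, ACOX2, a peroxisomal side-chain oxidase, by -0.59 to -0.34, and SCP2, a peroxisomal thiolase and sterol carrier, by 0.16 to 0.27, each called in 5 of 5 exposures. CYP7A1 had 0 to 8 reads per library and CYP8B1, the 12α-hydroxylase, 0 to 23, both below the level for testing. CYP7A1, like FGF19, was near the limit of detection in every group.

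Of 9 tested genes of bile acid and bile lipid transport other than SLC51A and SLC51B, 0 or 1 rose and 5 or 6 fell. ABCG8 (-0.65 to -0.49) and ABCG5 (-0.64 to -0.35), which together export sterols, ATP8B1 (-0.55 to -0.31), a flippase of the canalicular membrane, and ABCB4 (-0.31 to -0.16), a phospholipid exporter, fell in 5 of 5 exposures. SLC10A1, the main bile acid uptake carrier of liver, had 0 to 2 reads per library and ABCB11, the canalicular bile salt pump, 0 to 2. FABP1, a fatty acid binding protein, was higher in 3 of 5 exposures (0.45 to 0.93), but against unexposed replicates 4 to 6 its differences were -0.28 to 0.20. ABCC2 and ABCC3 were not called against all 6 unexposed libraries, and their direction turned with the unexposed set. ABCC2 was lower in 5 of 5 exposures against replicates 1 to 3 (-0.59 to -0.38) and higher in 5 of 5 against replicates 4 to 6 (0.39 to 0.6). For ABCC3 these were 5 of 5 lower (-0.96 to -0.82) and 3 of 5 higher (0.11 to 0.25).

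Downstream of the receptor, 23 genes of FGF receptor signalling and feedback were tested, of which 10 or 11 rose and 4 or 5 fell, the latter no more than the share of all genes called lower, with medians of 0.06 to 0.15. DUSP5 (1.29 to 1.85) and DUSP6 (0.83 to 0.98), phosphatases of ERK, SPRY4 (0.98 to 1.22), an inhibitor of receptor kinase signalling, and MAP2K1 (0.47 to 0.66), the kinase above ERK, rose in 5 of 5 exposures. DUSP5 was at 1.99 to 3.67 FPKM in unexposed and 7.64 to 13.9 in exposed libraries. ETV5, an ERK-responsive factor, moved the other way (-0.43 to -0.32). These genes respond to many receptor kinases and are not particular to FGFR4.

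**Figure D4:**
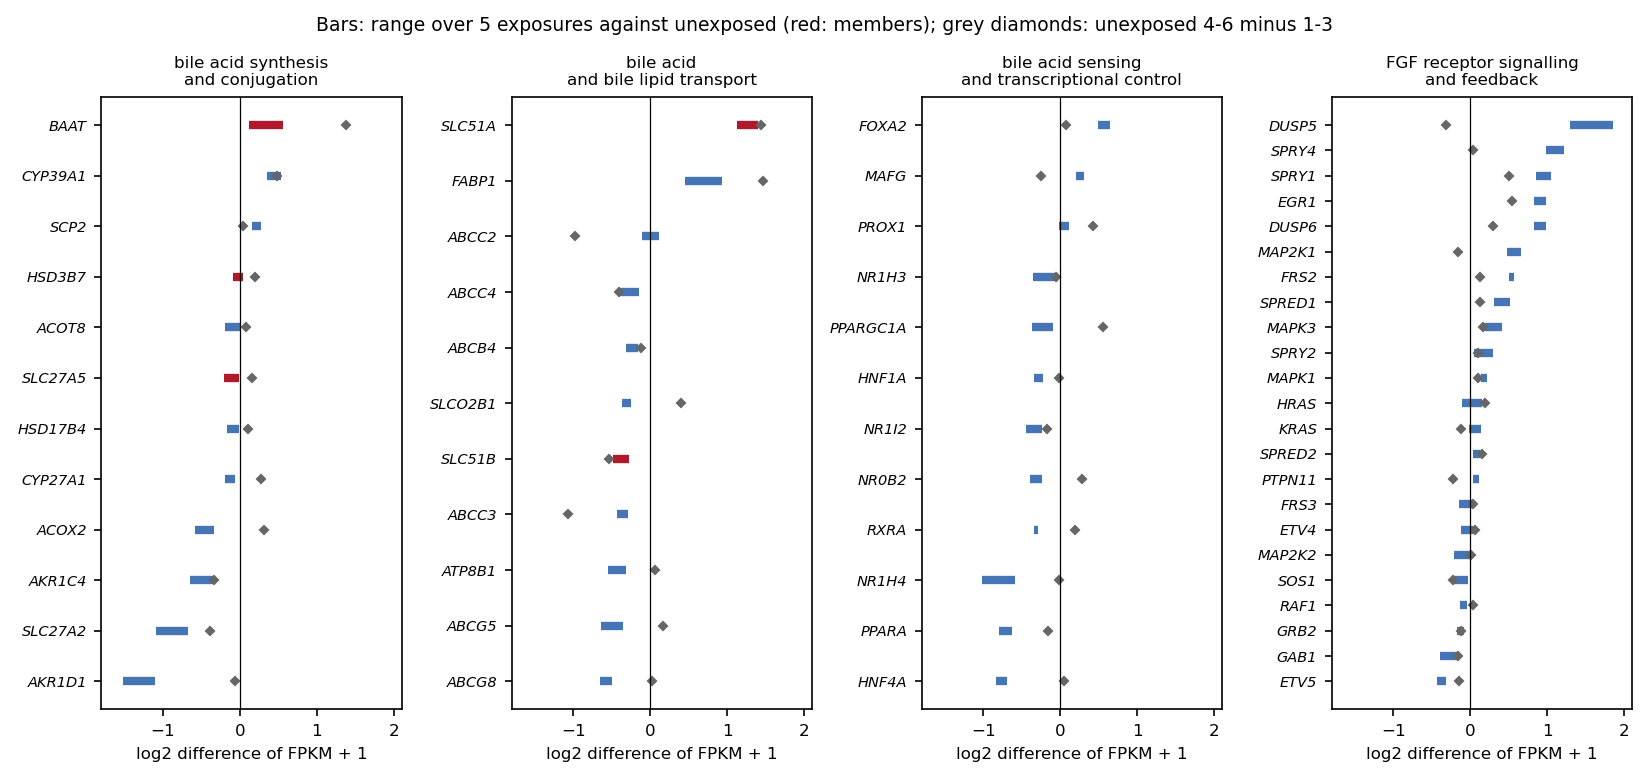
Log2 difference of FPKM + 1 (horizontal axes) for the tested genes of 4 pathway lists; bars span the 5 exposures against unexposed cells, red for the genes followed here and blue for others, and diamonds give unexposed replicates 4 to 6 minus 1 to 3. The bar of AKR1D1 spans -1.52 to -1.10 and that of NR1H4 -1.02 to -0.59 with diamonds at -0.06 and -0.01, whereas the diamonds of SLC51A (1.44) and BAAT (1.38) lie beyond their bars.

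Over the 21 libraries the patterns most like KLB, among 10511 other tested protein-coding genes, were those of SLC35B1 (Pearson r = 0.978), XPOT (0.972) and MCUR1 (0.971). For SLC51A they were SLC6A8 (0.993), TNFAIP3 (0.989) and PNCK (0.987), and for SLC51B they were CELSR1 (0.893), TSKU (0.891) and MRPS16 (0.888). For BAAT they were VSNL1 (0.941), RELN (0.938) and IL1RN (0.936). The best values were lower for FGFR4 (STK25, 0.843), SLC27A5 (TCF19, 0.824) and HSD3B7 (GALK1, 0.776), whose levels varied least. Among the members KLB and SLC51A had r = -0.92 and KLB and SLC51B r = 0.72. All these describe libraries that share groups and the parting of the unexposed sets.

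Levels of the nearest listed genes varied in their likeness to the members. RPL9, 985 bases from KLB, was at 67.1 to 85.1 FPKM in unexposed and 87.2 to 128 in exposed libraries, opposite in direction to KLB, and RFC1 on the other side was at 9.64 to 13 and 8.92 to 11.5. Beside BAAT, PLPPR1, 35282 bases away, was at 0.0141 to 0.0397 FPKM in unexposed replicates 1 to 3, 0.19 to 0.362 in replicates 4 to 6 and 0.182 to 0.421 in exposed libraries, a step between the unexposed sets in the same direction as that of BAAT. The pseudogene FYTTD1P1, which overlaps BAAT, was at 0 to 0.263, 0.486 to 0.594 and 0.0733 to 0.494 FPKM in the same order, also higher in the second set. MRPL50, 4114 bases from BAAT on the other side, was at 14.3 to 15, 14.6 to 16.3 and 14.1 to 18.8 FPKM. Of the neighbours of SLC51B, UBAP1L was at 0.705 to 0.991 FPKM in unexposed and 0.434 to 0.75 in exposed libraries, and MTFMT at 2.51 to 3.28 and 1.93 to 2.9. ZDHHC19, 50 bases from SLC51A, was at no more than 1.03 FPKM.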

How the data were processed

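RNA of C3A cells was sequenced in 21 libraries, made with SMARTer chemistry, and no strand is stated, per the labels. HISAT2 2.0.5, featureCounts 1.5.0-p3 and the build GRCh38 are named in the submitters' processing notes, and the authors deposited FPKM values in 6 tables. How FPKM were scaled is not given in the sources used here. Scaling them by the median of ratios between libraries gave factors of 0.9941 to 1.004, so that alternative could change little. Divided by what 1 read is worth, given gene length and library, FPKM came out as whole reads to within 0.1 of a read in 100% of values. A gene absent from a table was taken as 0.

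Genes in all 6 tables with at least 1 FPKM in at least 3 libraries (13405) were fitted on log2(FPKM + 1), computed from the values the authors deposited, with limma 3.58.1 in R 4.3.3, with a mean-variance trend and Benjamini-Hochberg adjustment within each comparison. Groups came from the labels. Unexposed replicates 1 to 3 and 4 to 6 were also fitted as separate groups. Folds are of FPKM + 1 and understate changes of low genes. The fit was tried on simulated data for glyphosate against unexposed cells with 13405 genes. It recovered 44.5% of genes changed 1.25-fold, 74.5% of those changed 1.5-fold and 83% of those changed 2-fold, with 3.49 to 5.7% false calls. The simulated unexposed libraries shared a common mean, without the step between replicates 1 to 3 and 4 to 6. These rates therefore do not cover that step.

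The members, gene lists and tests were chosen with earlier results of these data known. By rule, the text names all 9 members, up to 4 other tested genes per pathway list by smallest adjusted p, 12 fixed genes of the pathway, the 3 best-correlated genes per tested member and listed neighbours. Other genes named, such as APOB, SPP1, ETV5, FABP1 and PCYT1A, were chosen after their values were seen. Promoters were read from RefSeq, and ratios and plots were made in Python 3.11.15 with scipy 1.17.1 and matplotlib 3.10.9. Alternatives were TPM, scaling by the median of ratios, a pseudocount of 0.1, dropping the filter, the compared groups alone, a replicate block, voom on recovered reads, each library left out and either unexposed set left out. Added after the data were seen were fits with the unexposed sets apart for mixtures and interactions. Outliers were looked for in groups of 4 to 10 libraries, which left the 6 unexposed ones.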

Additional observations from a re-analysis of the deposited data

Results flagged for a closer look

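By the interaction test, the KLB difference between 2,4-D and unexposed cells did not equal that between a mixture and glyphosate or AMPA alone. The test includes the unexposed libraries, so a batch shared by all exposed libraries cannot be told apart from an interaction. For glyphosate with 2,4-D the interaction was 1.04 on the log2 scale of FPKM + 1 (limma adjusted p = 0.000245), and for AMPA with 2,4-D it was 1.20 (adjusted p = 5.6e-05). With unexposed replicates 1 to 3 in place of all 6 the KLB values were 1.25 and 1.41, and with replicates 4 to 6 they were 0.84 and 1.00, all called.

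SLC51A met the same criterion in the other direction, at -1.30 for glyphosate with 2,4-D (limma adjusted p = 0.0424) and -1.50 for AMPA with 2,4-D (adjusted p = 0.0198). With unexposed replicates 1 to 3 the SLC51A values were -2.02 and -2.22, and with replicates 4 to 6 they were -0.58 and -0.78, all called. These interactions share the unexposed and 2,4-D libraries. No unexposed library stood out from the other 5 by Dixon's test for any of the 9 genes, where chance marks about 1 in 20. That test sets the gap of an end library against the whole range. For genes that differed between the unexposed sets this range includes the step between them, so the test could hardly mark a library.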

How the results depend on the processing

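Of 2317 alternative values for single members, 2086 kept their direction and side of the threshold, 100 were uncalled in both fits and changed sign, 74 gained and 47 lost a call, and 10 reversed with a call in either fit. For exposures against unexposed cells, members called numbered 5 for glyphosate, 5 for AMPA and 4 for glyphosate+2,4-D under the replicate block, and the same 5, 5 and 4 without unexposed replicates 4 to 6. For AMPA they numbered 4 with TPM or voom, and for AMPA+2,4-D 1 when fitted alone. With no filter they also numbered 4 for AMPA, a count that includes FGF19 and AMACR, which the main fit did not test. For 2,4-D against unexposed replicates 4 to 6 they numbered 5 under TPM and 6 under voom. AMPA+2,4-D against AMPA gave 1 under the block and 2 with the unexposed sets apart. Interactions gave 5 each under the block, 4 (glyphosate) and 5 (AMPA) with unexposed replicates 1 to 3, and for glyphosate 1 with a pseudocount of 0.1, no filter, TPM or the groups alone, and 1 to 3 with a library left out. The share of all genes called under each alternative is not given here, so these counts describe the members alone. BAAT reversed without unexposed replicates 1 to 3, to -0.47 (glyphosate), -0.52 (AMPA), -0.58 (2,4-D) and -0.46 (glyphosate+2,4-D). FGFR4 against replicates 1 to 3 turned to -0.03 under TPM and -0.01 under voom for AMPA, and to -0.12 under voom for AMPA+2,4-D. The BAAT interaction turned to 0.59 with unexposed replicates 4 to 6 (glyphosate), and to -0.42 under the block and -0.42 with replicates 1 to 3 (AMPA). The cause was not tested.

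Replicate numbers did not pair libraries: over 45 same-numbered pairs deviations correlated at -0.119 to 0.0884, and 8 of 18 libraries correlated best with their own number. Numbers 4 to 6 occur only in unexposed cells, so the block rests exposures on unexposed replicates 1 to 3, and it was not run against replicates 4 to 6. TPM moved the median of all genes by -0.15 to -0.09. SLC51B, with 59 to 150 reads, AMACR, with 10 to 42, and FGF19, with 0 to 7, are limited by depth.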
